A study of Mus musculus with 8 samples.

Results

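Prostaglandins are made from arachidonic acid by a short chain of enzymes, and 9 genes of that chain and of its receptors were examined in the prostates of non-obese diabetic (NOD) mice. They are the cyclooxygenases Ptgs1 and Ptgs2, the terminal synthases Ptges, Ptgds and Ptgis, the prostaglandin E2 receptors Ptger2, Ptger3 and Ptger4, and the inactivating enzyme Hpgd. The members are a set of gene symbols, matched through the Ensembl identifiers of the deposited count table, and all 9 were found among its 54532 genes. At the level of single genes, 0 of the 8 that could be tested passed an adjusted p of 0.05 in edgeR, as did 0 of all 15472 tested genes. The largest fold changes among the tested members, in Ptgs2 and Ptger4, were lower with etanercept and had 95% intervals that reached 0.

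Bulk RNA-seq was performed on frozen whole prostates of 8 male NOD mice of the inbred NOD/ShiLtJ background, a strain that develops spontaneous autoimmune diabetes. Of these, 4 had received the PBS vehicle (control 1, 3, 65 and 69) and 4 had received etanercept, a fusion protein of the p75 TNF receptor that traps TNF (etanercept 17, 19, 50 and 52, named by animal number). Injections of PBS or of etanercept at 4 mg/kg were given 2 times a week for 5 weeks from an age of 25 weeks, and tissue was taken at 30 weeks. The labels give neither the diabetic status of the single mice nor the lobes in each library, and no mouse of another strain was sequenced here. The question put to these genes was how their RNA differs when TNF is blocked.

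Arachidonic acid is released from membranes by phospholipases A2 and is turned by cyclooxygenases into prostaglandin H2. Ptgs1 encodes the cyclooxygenase that most tissues carry at rest, and Ptgs2 the one that is induced by cytokines, growth factors and injury. Terminal synthases convert prostaglandin H2 to prostaglandin E2 (Ptges), prostaglandin D2 (Ptgds) or prostacyclin (Ptgis), and prostaglandin E2 then acts on G-protein-coupled EP receptors until it is taken up and oxidized by 15-hydroxyprostaglandin dehydrogenase (Hpgd). Seminal fluid is among the richest known sources of prostaglandins, most of which come from the seminal vesicles.

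The stretches of 250 bases before the RefSeq starts of both cyclooxygenase genes and of the EP receptor genes with the largest RNA differences in either direction are shown here, because the inducible and the resting cyclooxygenase differ in the motifs they hold. They are read 5′ to 3′ on the strand of the gene from GRCm38.p6, the reference of C57BL/6J and not of NOD. Capitals mark matches to the motifs searched on both strands, and a match is a description of letters, not a bound site.
Ptgs1, chr2:36230176-36230425, plus strand: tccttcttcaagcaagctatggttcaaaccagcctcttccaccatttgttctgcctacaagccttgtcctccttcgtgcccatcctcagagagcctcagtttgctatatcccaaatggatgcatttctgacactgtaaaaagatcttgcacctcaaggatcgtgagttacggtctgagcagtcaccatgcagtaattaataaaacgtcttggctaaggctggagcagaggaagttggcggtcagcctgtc
Ptgs2, chr1:150099781-150100030, plus strand: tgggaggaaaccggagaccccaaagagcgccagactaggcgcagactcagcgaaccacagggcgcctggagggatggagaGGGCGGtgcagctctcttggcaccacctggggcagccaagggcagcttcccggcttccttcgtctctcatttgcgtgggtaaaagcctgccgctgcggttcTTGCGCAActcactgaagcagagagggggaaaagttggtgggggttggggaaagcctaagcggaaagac
Ptger3, chr3:157566626-157566875, plus strand: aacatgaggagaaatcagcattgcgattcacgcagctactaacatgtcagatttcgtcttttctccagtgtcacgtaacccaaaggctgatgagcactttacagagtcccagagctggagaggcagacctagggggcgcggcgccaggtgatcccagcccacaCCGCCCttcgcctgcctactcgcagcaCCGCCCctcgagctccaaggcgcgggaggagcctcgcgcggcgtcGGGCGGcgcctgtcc
Ptger4, chr15:5244188-5244437, minus strand: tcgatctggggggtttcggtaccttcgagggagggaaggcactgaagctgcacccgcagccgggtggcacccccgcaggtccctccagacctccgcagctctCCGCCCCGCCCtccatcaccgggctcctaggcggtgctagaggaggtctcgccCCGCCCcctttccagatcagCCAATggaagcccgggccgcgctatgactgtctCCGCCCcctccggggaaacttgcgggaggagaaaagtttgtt

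Of the 9 members, 8 had a promoter window. The Ptgs1 window held no match to any of the 8 motifs searched and had a GC content of 48.0%, below the median of 52.4% over all 32851 windows. The Ptgs2 window had a GC content of 61.6% and held a GC box (GGGCGG, in 32.7% of all windows) and the palindrome TTGCGCAA, a C/EBP-type match (TTNNGCAA, in 9.56% of windows), from 69 to 62 bases before the start. The Ptger4 window held 4 GC boxes, of which a pair shares a base, and a CCAAT box, a motif found in 33.8% of windows. The Ptger3 window held 3 GC boxes. Of the windows not printed, that of Ptgds held an AP-1 match (TGACTCA, in 4.46% of windows) and a match to the NF-κB consensus (in 7.25%). The windows of Ptgds and Ptges lie inside their genes as the GENCODE annotation draws them. The windows of Ptges and Hpgd held GC boxes only, and that of Ptger2 held a CCAAT box only. No member's window matched TATAAA (in 12.4% of windows), TGACG (17.8%) or CACGTG (6.02%). The windows end just before the RefSeq start, and bases past that start or farther upstream were not searched. A missing match therefore holds for the window only and does not show that the gene, Ptgs2 included, lacks the motif nearby.

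Expression is given as CPM, the count relative to the TMM-scaled library total, and levels of different genes are compared as FPKM, the CPM per kilobase of exon. Total counts lay between 13760669 and 25178942 per mouse. The libraries differed in genes that mark lobes and other tissues. The secretory gene Sbp, which encodes the spermine-binding protein of the ventral lobe, ranged from 1547 CPM in control 1 to 225760 CPM in control 69, and Svs2, a major seminal vesicle protein gene, stood at 69757 CPM in etanercept 17, at 2374 in control 69 and at 403 or less in the other mice. The summed level of 7 macrophage markers was 247 to 766 CPM in control and 191 to 269 CPM in etanercept-treated mice. Of its control mean of 429 CPM, C1qa gave 215 and C1qb 114. The sum of 6 adipocyte markers was 32.1 to 483 CPM in control against 0.815 to 20.5 CPM in treated mice. For 6 smooth muscle markers the sums were 3350 to 6987 against 6423 to 13767 CPM. The 6 luminal epithelial markers all passed the filter on low counts and summed to between 3686 and 12407 CPM. In whole tissue, fewer cells of a type and less RNA per cell cannot be told apart.

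With edgeR's quasi-likelihood test and Benjamini-Hochberg adjustment, 0 of the 8 tested members passed an adjusted p of 0.05, where 0.0% of all 15472 tested genes did. Ptgds did not pass the filter on low counts. Past an unadjusted p of 0.05 in edgeR, 0 members were higher and 0 were lower with etanercept, against 2.99% and 3.63% of all tested genes. That count is near its limit, since 12 of 20 alternative fits had at least 1 member past it. Ptger4 was past it in 9 of them and Ptgs2 in 5, both lower with etanercept. Ptgds, which was higher, was past it in the 1 edgeR fit that included it. Over all genes, 277 were higher and 398 lower of 15996 without control 65, and 870 and 956 of 15975 without control 69. The fits draw on the same 8 mice, and 1 of them was added after the data were seen. DESeq2 likewise called 0 members at an adjusted p of 0.05 (0.113% of genes), and before adjustment its p was 0.05 or below for 2 members, Ptgs2 and Ptger4 (5.84% of genes). The groups overlapped for all 8 tested members, while 4.94% of tested genes showed no overlap, 2.41% with the treated mice higher and 2.53% with them lower. Among the members, 5 fold changes lay above 0 and 3 below, with a median log2 fold change of 0.052 beside −0.0099 over all tested genes. The smallest adjusted p among the members was 0.743.

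**Figure D1:**
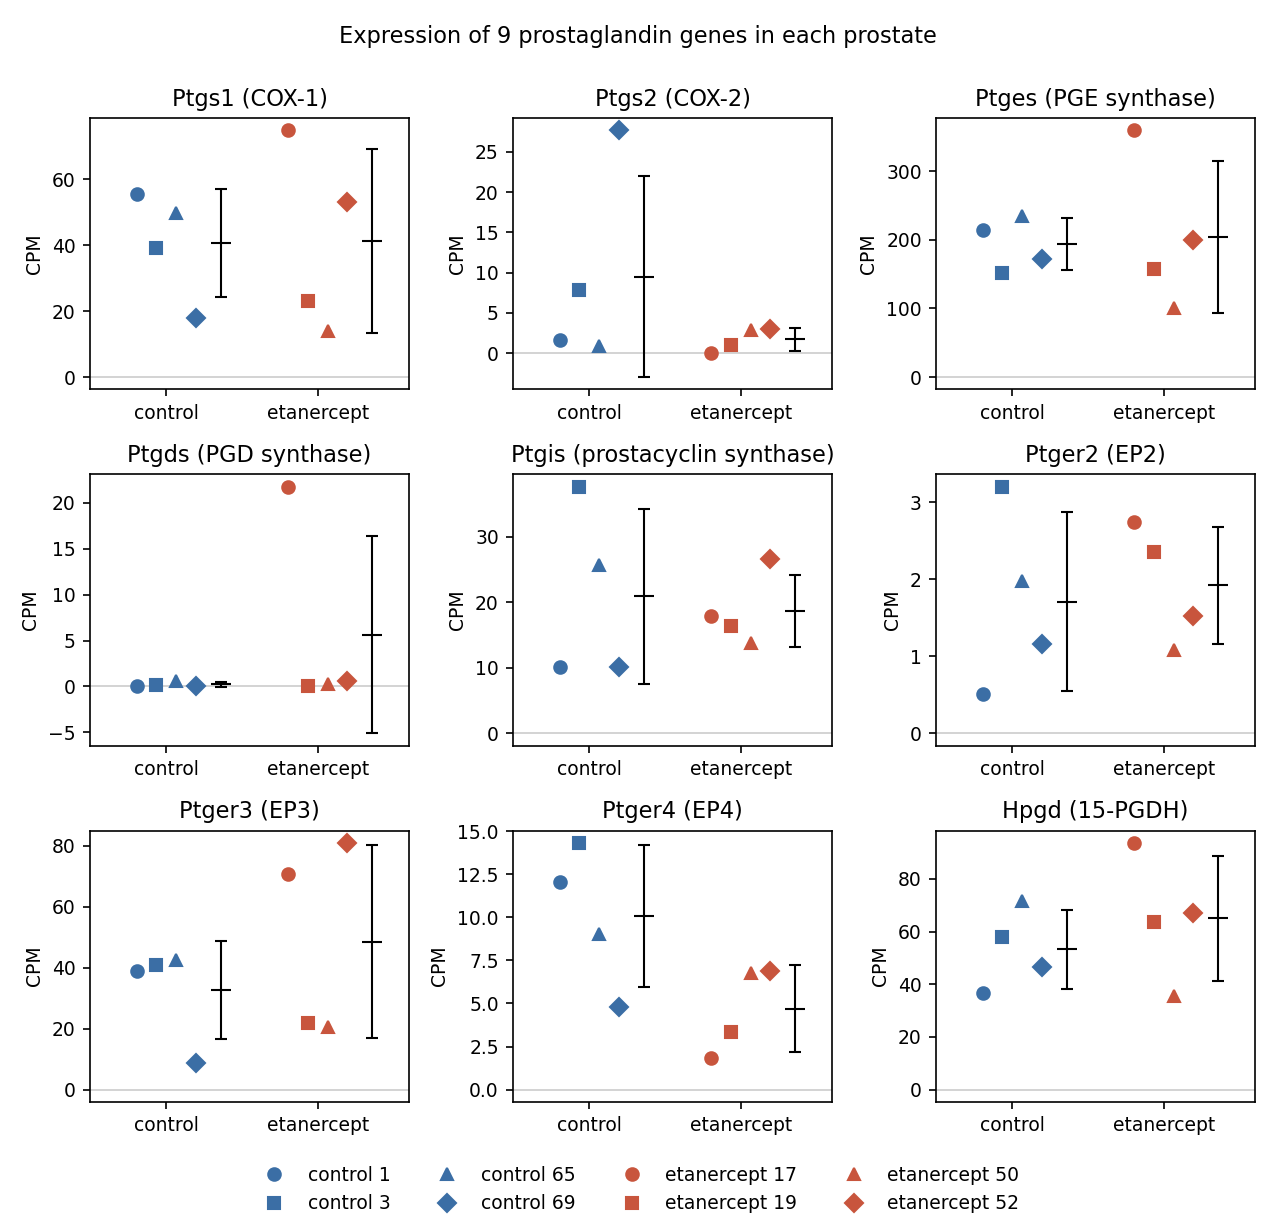
Expression of each of the 9 genes in CPM (vertical axes, each starting near 0) in 4 control and 4 etanercept-treated prostates. Each point is 1 mouse, and the mark beside the points is the group mean with bars of 1 SD. Ptgs2 is carried by control 69 at 27.7 CPM and Ptgds by etanercept 17 at 21.8 CPM, and the groups overlap in every panel.

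Ptgs1 lies on chromosome 2 (36230426 to 36252272, plus strand, GRCm38). It was detected in every mouse. Control mice 1, 3, 65 and 69 held 55.3, 39.2, 49.7 and 18.1 CPM. Etanercept mice 17, 19, 50 and 52 held 74.7, 23.1, 14.1 and 53.2 CPM. The highest and the lowest mouse were thus both etanercept-treated, and all 4 controls lay between them. The group means were 40.6 ± 16.4 and 41.3 ± 27.9 CPM (SD, n = 4 each), with a log2 fold change of 0.024 (SE 0.51, 95% interval −1.12 to 1.17, adjusted p = 0.999 in edgeR). Its direction turned without etanercept 17 (−0.43), without control 69 (−0.22) and without etanercept 52 (−0.14). The spread of Ptgs1 within groups was at the 90.0th percentile of the tested genes.

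Ptgs2, the inducible cyclooxygenase gene, lies on chromosome 1 (150100031 to 150108227, plus strand). Its counts were 46, 118, 12 and 478 in control mice 1, 3, 65 and 69, which gives 1.66, 7.87, 0.845 and 27.7 CPM. In etanercept mice 17, 19, 50 and 52 they were 0, 18, 47 and 43, which gives 0, 0.963, 2.81 and 2.98 CPM. The 2 highest mice were controls, but control 1 and control 65 lay within the range of the treated mice. With no count in etanercept 17, a level of up to 0.175 CPM, the worth of 3 counts in that library, was not detectable. The log2 fold change was −2.49 (SE 1.28, 95% interval −5.35 to 0.37), a fold of 0.177, with p = 0.0804 and adjusted p = 0.776 in edgeR, and the exact permutation test gave p = 0.257. Control 69 alone held 62.7% of all Ptgs2 counts. Without control 69 the log2 fold change was −1.03 (adjusted p = 0.798 in edgeR), and the spread of Ptgs2 within groups was at the 98.0th percentile of the tested genes. Control 69 also held the most Sbp and the lowest summed macrophage markers of the controls, at 247 CPM. Among the controls it was lowest in Cd68, C1qa and C1qb, but not in Adgre1, Csf1r, Mrc1 and Cd163. Whether Sbp or these markers bear on the Ptgs2 level of control 69 was not tested. In DESeq2 the log2 fold change was −2.52 (adjusted p = 0.570).

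The 2 cyclooxygenases made up different shares of their summed FPKM from mouse to mouse. Ptgs2 was 2.49%, 14.5%, 1.42% and 56.5% of it in control 1, 3, 65 and 69. It was 0%, 3.41%, 14.4% and 4.54% in etanercept 17, 19, 50 and 52. Control 69 was therefore the only mouse of the 8 in which the inducible gene had the larger share. Its Ptgs1 level of 4.65 FPKM was the lowest of the controls, though above the 3.63 FPKM of etanercept 50, and its Ptgs2 level of 6.04 FPKM was the highest of all.

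Of the 3 terminal synthases among the members, Ptges had most RNA. It is the gene of the microsomal prostaglandin E synthase that works with Ptgs2 in inflamed tissue (chromosome 2, 30889471 to 30929863, minus strand). Control mice 1, 3, 65 and 69 held 215, 152, 235 and 172 CPM. Etanercept mice 17, 19, 50 and 52 held 359, 158, 101 and 200 CPM. As with Ptgs1, etanercept 17 was the highest and etanercept 50 the lowest of all 8 mice. In edgeR the fold change was 0.080 on the log2 scale (SE 0.35, 95% interval −0.70 to 0.86, adjusted p = 0.995) and −0.34 without etanercept 17.

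Ptgis, the prostacyclin synthase gene of vessels and smooth muscle (chromosome 2, 167191805 to 167240604, minus strand), stood at 10.2, 37.7, 25.6 and 10.2 CPM in control 1, 3, 65 and 69. It stood at 17.9, 16.4, 13.9 and 26.6 CPM in etanercept 17, 19, 50 and 52. All 4 treated mice lay inside the range of the controls. Etanercept over control, edgeR gave a log2 fold change of −0.16 (SE 0.44, 95% interval −1.14 to 0.82, adjusted p = 0.989), and without control 3, the highest mouse, it was 0.29. The opposite strand holds 1110018N20Rik, a transcript that shares 156 exon bases with Ptgis and had 19 counts or fewer in each mouse.

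Ptgds, the lipocalin-type prostaglandin D synthase gene (chromosome 2, 25466709 to 25470046, minus strand), was in effect measured in 1 mouse. Its counts were 0, 3, 9 and 0 in control 1, 3, 65 and 69. They were 374, 0, 4 and 8 in etanercept 17, 19, 50 and 52. Etanercept 17 held 94.0% of all Ptgds counts, at 21.8 CPM, and every other mouse was at 0.634 CPM or less. With no count, levels of up to 0.108 CPM in control 1, 0.174 in control 69 and 0.160 in etanercept 19 (3 counts each) were not detectable. The alternative fit over all genes with at least 1 count gave a log2 fold change of 4.79 (SE 1.88, adjusted p = 0.558 in edgeR), which rests on that mouse.

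The same mouse held 26 genes at 5 CPM or more that were at least 8 times their level in every other mouse, and Ptgds was one of them. Among the others, named after their values were seen, were the seminal vesicle genes Svs2, Svs4, Svs5 and Pate4, and Foxi1 and Atp6v1b1, which encode a transcription factor and a proton pump subunit of acid-secreting cells. Foxi1 stood at 19.2 CPM in etanercept 17 and at 0.200 CPM or less elsewhere. Control 69, with 2374 CPM of Svs2, had 0 counts of Ptgds, as had etanercept 19, with 0.160 CPM of Svs2. The part of these tissues in the Ptgds level of etanercept 17 was not tested.

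Ptger2, the gene of the EP2 receptor, which raises cyclic AMP (chromosome 14, 44988195 to 45003820, plus strand), had between 14 and 48 counts per mouse. Control 1, 3, 65 and 69 held 0.506, 3.20, 1.97 and 1.16 CPM. Etanercept 17, 19, 50 and 52 held 2.74, 2.35, 1.08 and 1.52 CPM. The treated mice again lay inside the range of the controls. The log2 fold change was 0.18 (SE 0.74, 95% interval −1.48 to 1.83, adjusted p = 0.995 in edgeR) and the interval of the fold ran from 0.359 to 3.55. The direction turned without control 1 (−0.16) and without etanercept 17 (−0.041).

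Ptger3, the gene of the EP3 receptor, which mostly lowers cyclic AMP (chromosome 3, 157566892 to 157645888, plus strand), stood at 38.8, 40.9, 42.4 and 8.62 CPM in control 1, 3, 65 and 69. It stood at 70.6, 22.0, 20.6 and 80.9 CPM in etanercept 17, 19, 50 and 52. Among the controls 3 mice were nearly level and control 69 was far below them, whereas the treated mice formed a high and a low pair on either side of those 3. Its log2 fold change was 0.57 (SE 0.57, 95% interval −0.71 to 1.85, adjusted p = 0.919 in edgeR). With single mice left out it ran from 0.19, without etanercept 52, to 0.82, without etanercept 50, and without control 69 it was 0.25. The spread within groups was at the 94.0th percentile of the tested genes.

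Ptger4, the gene of the EP4 receptor, which raises cyclic AMP and is carried by many leukocytes (chromosome 15, 5206661 to 5244187, minus strand), had 334, 215, 128 and 83 counts in control 1, 3, 65 and 69. This gives 12.1, 14.3, 9.02 and 4.80 CPM. Etanercept 17, 19, 50 and 52 had 31, 62, 113 and 99 counts, which gives 1.81, 3.32, 6.76 and 6.86 CPM. The 3 highest mice were controls and the 2 lowest were treated, with control 69 below etanercept 50 and etanercept 52. The means were 10.1 ± 4.13 and 4.68 ± 2.53 CPM (SD, n = 4 each). The log2 fold change was −1.10 (SE 0.51, 95% interval −2.24 to 0.036), a fold of 0.465, with p = 0.0563 and adjusted p = 0.743 in edgeR, and the exact permutation test gave p = 0.114.

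The Ptger4 fold change was negative in every alternative fit, from −1.35 to −0.83, and the smallest adjusted p among them was 0.364, without control 69. In DESeq2 it was −1.12 (adjusted p = 0.617). The summed macrophage markers were highest in control 3, at 766 CPM, which also had the highest Ptger4 level, and lowest in etanercept 17, at 191 CPM, which had the lowest. Etanercept 19 went against this, with the highest sum of the treated mice, 269 CPM, and a Ptger4 level of 3.32 CPM, while control 69 had 247 and 4.80 CPM. Of the 7 macrophage markers, 3 (Cd68, C1qa and C1qb) were lower past an unadjusted p of 0.05, beside 3.63% of all tested genes, and 0 past an adjusted p of 0.05 in edgeR. The 6 T cell markers summed to 42.4 to 103 CPM in control and 30.4 to 47.1 CPM in treated mice. The 6 B and plasma cell markers summed to 354 to 4106 CPM in control and 226 to 894 CPM in treated mice. Jchain, a plasma cell gene, gave 1632 of the control mean of 1874 CPM. The log2 fold changes of the 6 ran from −1.91 for Jchain to −0.14 for the B cell gene Ms4a1. Neutrophil markers were at 4.40 CPM or less in sum in every mouse, with S100a8 at 0 in all of them. The part of macrophages, T cells, B and plasma cells or fat in the Ptger4 values was not tested. On the opposite strand Ttc33, with 245 to 626 counts, shares 82 exon bases with Ptger4, 1.23% of its exon length. The pseudogene Gm15937, also on the opposite strand and with no count in any mouse, shares 1015 bases or 15.3%, and the counting is not stated to use strand.

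Within the 3 EP receptors, Ptger3 held 61.6% to 81.1% of the summed FPKM in control mice and 74.8% to 94.0% in treated mice. Ptger4 held 14.8% to 29.4% in control and 2.06% to 20.95% in treated mice. Ptger2 held 1.12% to 9.06% and 1.89% to 9.41%. In each of the 8 mice Ptger3 was the largest share, and for each receptor the shares of the groups overlapped.

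Hpgd, which encodes the enzyme that oxidizes prostaglandin E2 to an inactive ketone (chromosome 8, 56294585 to 56321043, plus strand), was detected in every mouse, with 597 counts or more. Control 1, 3, 65 and 69 held 36.8, 57.9, 71.5 and 46.7 CPM. Etanercept 17, 19, 50 and 52 held 93.7, 63.7, 35.7 and 66.9 CPM. The highest and the lowest mouse were both treated. Its log2 fold change was 0.29 (SE 0.30, 95% interval −0.38 to 0.96, adjusted p = 0.923 in edgeR), and it stayed above 0 in every alternative fit. Without etanercept 17 it was 0.061. The interval leaves out a rise or a fall of more than 2-fold.

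**Figure D2:**
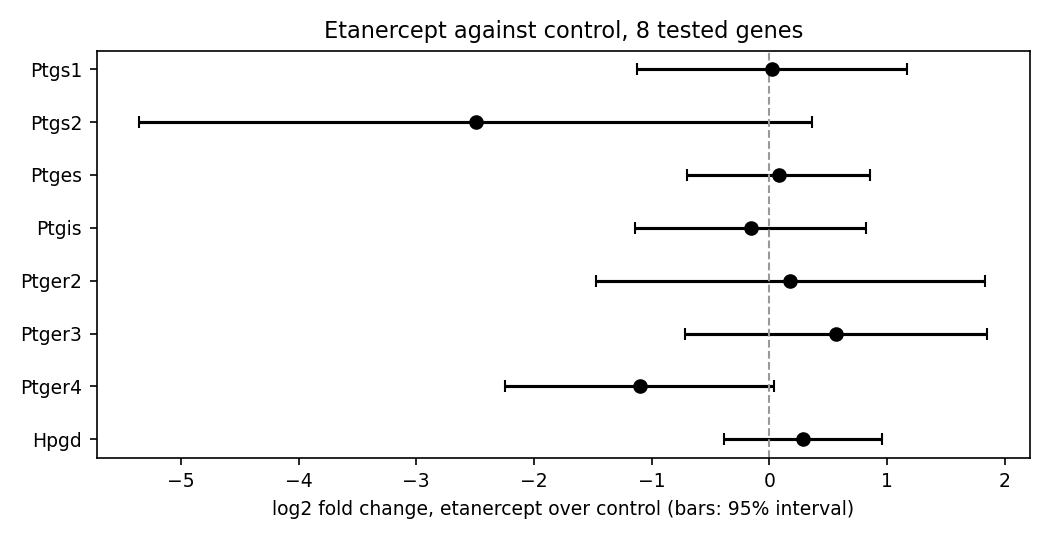
Log2 fold change of etanercept over control (horizontal axis) for the 8 tested genes, each point with its 95% interval from edgeR. Every interval includes 0, and those of Ptgs2 (−5.35 to 0.37) and Ptger4 (−2.24 to 0.036) lie mostly below it.

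Per exon length, the members covered a wide range. Over the 8 mice Ptges stood at 50.6 ± 19.6 FPKM (SD) and Hpgd at 35.1 ± 11.5, which put them at the 94.0th and 91.6th percentiles of tested genes. Ptgs1 stood at 10.5 ± 5.45, Ptgis at 7.72 ± 3.71 and Ptger3 at 7.14 ± 4.36 FPKM. These 3 genes, an enzyme of resting tissue, one of vessels and a receptor, lay close together in the middle of the order. Ptger4 followed with 1.11 ± 0.643, Ptgs2 with 1.22 ± 2.02 and Ptger2 with 0.35 ± 0.18 FPKM, and Ptgds, at 1.77 ± 4.62, was last on the log scale, since 1 mouse carries its mean.

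The order was taken from the mean of log2(FPKM + 0.1), and neighbours were compared within mice by a 2-sided exact sign-flip test, adjusted over the 8 pairs. Ptges was above Hpgd in 8 of 8 mice by 0.51 ± 0.40 (SD), Hpgd above Ptgs1 in 8 of 8 by 1.86 ± 0.69, and Ptger3 above Ptger4 in 8 of 8 by 2.51 ± 1.31, each on the log2 scale with exact p = 0.0078, the smallest that 8 mice allow, and adjusted p = 0.0208. The other 5 pairs of neighbours did not differ beyond their spread, with adjusted p from 0.469 to 0.719. The inactivating enzyme thus stood above the resting cyclooxygenase in every mouse. The ratio of Hpgd to the summed FPKM of the cyclooxygenases was 1.5 to 3.28 in control and 2.77 to 6.15 in treated mice. The ratio of Ptges to that sum was 3.28 to 4.61 in control and 3.55 to 6.52 in treated mice.

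**Figure D3:**
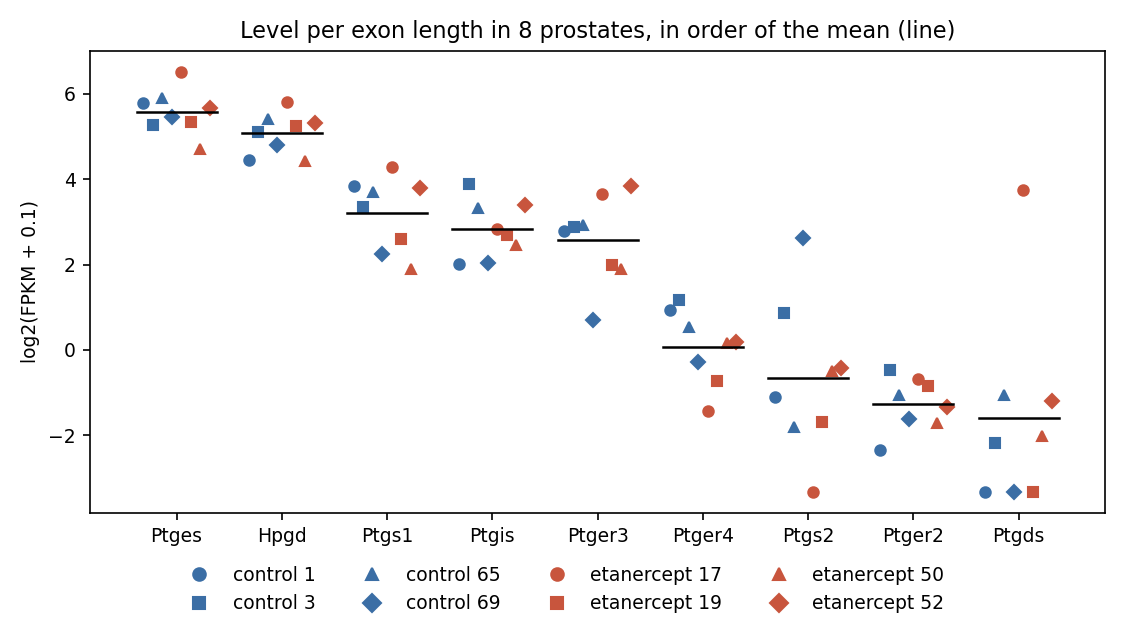
Level per exon length of the 9 genes as log2(FPKM + 0.1) (vertical axis) in 8 prostates, in the order of the mean, which is drawn as a line. Points are mice, blue for control and red for etanercept. Levels fall in steps from Ptges (mean 5.58) and Hpgd (5.07) to a middle group from 3.21 to 2.58 and a low group from 0.068 to −1.58.

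Several members varied together between mice of both groups. The 3 mice with most Sbp (control 69 with 225760, etanercept 50 with 180220 and etanercept 19 with 174099 CPM) were the 3 lowest in Ptgs1 and the 3 lowest in Ptger3. Sbp, Pbsn (probasin, a luminal secretory gene) and 9530053A07Rik were chosen for this description after their values were seen. Over the 8 mice, on log2(CPM + 1), Ptgs1 and Sbp had Pearson r = −0.84 and Spearman rho = −0.93, and r = −0.81 without the 2 mice farthest from the median of Ptgs1. For Ptges and Sbp these values were −0.79, −0.76 and −0.70, and for Ptger3 and Sbp −0.62, −0.69 and −0.81. Ptgs1 went the other way with 9530053A07Rik (r = 0.93) and with Pbsn (r = 0.89). The points share libraries, scaling factors and whatever tissue each library holds, so these are descriptions with no test.

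Among the members themselves, Ptgs1 went with Ptges (r = 0.85, rho = 0.83, n = 8) and with Ptger3 (r = 0.86, rho = 0.79), and r was 0.83 for both without the 2 farthest mice. Ptgs2 and 9530053A07Rik had r = −0.73, and −0.34 without etanercept 17 and control 69, so that relation rests on those mice. For Ptger4 and Sbp r was 0.023, and −0.86 without control 3 and etanercept 17. For Hpgd and Sbp it was −0.26, and −0.91 without control 1 and etanercept 50, so neither value is steady. With the log2 level of Sbp and Sbpl as a term of the model, added after the data were seen, 0 members passed an adjusted p of 0.05 and no fold change turned its direction. Ptgs2 then stood at −2.73 (adjusted p = 0.481) and Ptger4 at −1.21 (adjusted p = 0.547 in edgeR).

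**Figure D4:**
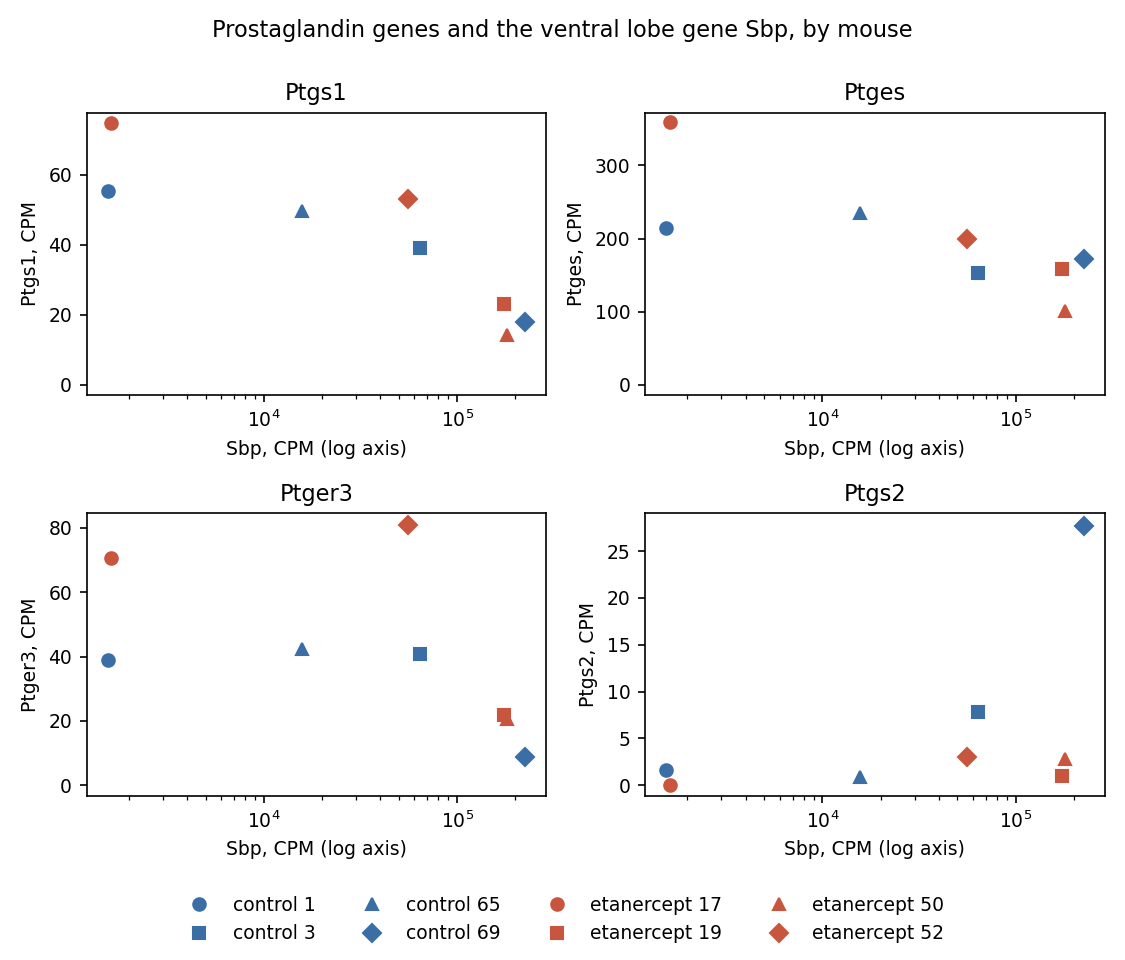
Ptgs1, Ptges, Ptger3 and Ptgs2 in CPM (vertical axes) against the ventral lobe gene Sbp in CPM (horizontal log axis), 1 point per mouse, blue for control and red for etanercept. The 3 mice at the right, with at least 174099 CPM of Sbp, are the lowest in Ptgs1 and Ptger3, while the highest Ptgs2 value, 27.7 CPM, belongs to the mouse farthest right.

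For each tested member the 3 genes with the most similar pattern over the 8 mice were taken by Pearson's r of log2(CPM + 1) among all tested genes, where high values arise easily with 8 points. Closest to Ptgs1 was Akr1b3, an aldose reductase that is also listed among the prostaglandin synthases (r = 0.98, rho = 0.88), followed by the RNA genes Bvht and Gm14005. Closest to Ptgs2 were the RNA genes Gm19605, Gm16559 and Hopxos, with r from 0.95 to 0.98, of which Gm16559 and Hopxos are antisense to other genes and uncertain without strand. Closest to Ptges were Gnb1, a G protein subunit, Map2k3, a stress kinase, and Erp44, a chaperone of the secretory pathway (r from 0.96 to 0.97). Closest to Ptgis were Aqp1, a water channel of endothelium (r = 0.98), Pcdhgb6 and Glipr1. Closest to Ptger2 were Urb1, the NF-κB inhibitor gene Tnfaip3 (r = 0.96) and Sirt1, a deacetylase.

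Closest to Ptger3 were Lrp3 (r = 0.99, rho = 0.95), Eps8, an actin regulator, and Fut8, a fucosyltransferase whose level ran from 21.2 to 145 CPM. Closest to Ptger4 were Larp7 (r = 0.97), Carmil2 and Timp1, an inhibitor of matrix metalloproteinases (r = 0.96). Closest to Hpgd were Gpr35 (r = 0.96), A030001D20Rik and Erlec1, with r from 0.94 upward.

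The rest of the pathway was read from 5 lists of eicosanoid genes with 50 genes in the table, of which 36 were tested. At an adjusted p of 0.05, 0 of them passed in edgeR, and past an unadjusted p of 0.05, 1 was higher and 0 were lower, where 6.62% of all tested genes passed in either direction. Their median log2 fold change was −0.061, with 17 above 0 and 19 below.

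Upstream of the cyclooxygenases, 14 phospholipase A2 genes were listed, of which 8 were tested and 0 passed an unadjusted p of 0.05 (median log2 fold change −0.18). Those with the smallest p were Pla2g4e (log2 fold change −2.26), Pla2g6 (−0.30), Pla2g5 (−0.63), Pla2g4f (0.48) and Pla2g2d (−0.54). Pla2g4b, Pla2g10, Pla2g2a and Pla2g2e had no count in any mouse. Of 10 other terminal synthases 8 were tested, 0 passed (median −0.082), and Tbxas1, the thromboxane synthase gene, had the smallest p with a log2 fold change of −1.31 (SE 1.13, adjusted p = 0.890). It was followed by Hpgds (−0.39), Akr1b8 (0.14), Prxl2b (−0.15) and Ptges3 (−0.097). Akr1b7, below the filter and named after its values were seen, stood at 302 CPM in control 69, at 32.7 in etanercept 17 and at 0.856 or less in the other mice.

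Of 6 other prostanoid receptors, 3 were tested and 0 passed. The log2 fold change was 0.98 (SE 0.68) for Tbxa2r, the thromboxane receptor gene, 1.46 (SE 1.43) for Ptgdr, a prostaglandin D2 receptor gene, and 0.25 (SE 0.70) for Ptgir, the prostacyclin receptor gene. Ptger1, Ptgdr2 and Ptgfr were below the filter, and Ptger1, which encodes the remaining EP receptor, was at 2.10 CPM or less in every mouse. Tbxa2r stood at 10.95 CPM in etanercept 17 and at 3.95 CPM or less in every other mouse.

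All 6 genes of transport and inactivation were tested, with a median log2 fold change of 0.21. Ptgr2, a reductase of the ketones that Hpgd makes, was the 1 gene of the lists past an unadjusted p of 0.05. It stood at 15.05 CPM in control 69 and at 11.1 CPM or less in control 1, 3 and 65. It stood at 22.8, 20.4, 19.6 and 12.0 CPM in etanercept 17, 19, 50 and 52. Of the treated mice, 3 lay above every control and etanercept 52 lay among the controls (log2 fold change 0.68, SE 0.27, adjusted p = 0.739 in edgeR). The transporter genes Abcc4 (log2 fold change 0.41) and Slco2a1 (0.33), which carry prostaglandins out of and into cells, did not pass, nor did the carbonyl reductases Cbr3 (−0.14) and Cbr2 (0.093). Cbr2 was lowest in etanercept 17, at 72.9 CPM, and highest in control 69, at 3460 CPM, mice near the low and at the high end of Sbp.

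In the lipoxygenase branch, which makes leukotrienes and hydroxylated fatty acids from the same arachidonic acid, 11 of 14 genes were tested and 0 passed an unadjusted p of 0.05. Their median log2 fold change was −0.88, and the genes with the smallest p were Ltc4s (−2.48), Ltb4r2 (−2.03), Aloxe3 (−1.63), Alox12e (−1.66) and Alox5ap (0.61). Ltc4s, the leukotriene C4 synthase gene, had a mean of 2.70 ± 2.35 CPM in control and 0.480 ± 0.425 CPM in treated mice (SD, n = 4 each), so these fold changes come from low levels.

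A further list held 21 immediate early and inflammatory genes, of the kind that induce Ptgs2 or follow prostaglandin signals. Of the 19 tested, 7 were lower and 0 higher with etanercept past an unadjusted p of 0.05 in edgeR, beside 3.63% and 2.99% of all tested genes. At an adjusted p of 0.05, 0 passed. The list was chosen with earlier results of these data known, so this share cannot be read as an enrichment. The 7 were the immediate early genes Ier2 (log2 fold change −0.86), Nr4a1 (−1.21), Dusp1 (−0.98), Egr1 (−1.42), Fosb (−1.58), Junb (−0.70) and Fos (−2.07), of which Junb and Fos were named for this count after their values were seen. The cytokine gene Il6 was below the filter, at 0 CPM in every control and at 1.69 CPM in etanercept 17. Il1b, named after its values were seen, had a log2 fold change of 1.47 (SE 1.30, adjusted p = 0.897 in edgeR) and was highest in etanercept 52, at 9.56 CPM. The list's summed level was 763, 593, 363 and 304 CPM in control 1, 3, 65 and 69 and 285 to 302 CPM in treated mice, so that control 1 and control 3 stood above the other 6 mice. The same 2 mice had the highest sums of adipocyte markers (213 and 483 CPM), T cell markers (78.0 and 103 CPM), endothelial markers (81.9 and 129 CPM) and basal epithelial markers (355 and 294 CPM). These marker lists were picked after their values were seen. Other sums did not follow, as control 1 was lowest of all mice for smooth muscle (3350 CPM) and fibroblasts (407 CPM). It was also below control 65 for macrophages (306 against 396 CPM) and for B and plasma cells (887 against 2148 CPM). The part of any of these cells in the values of the immediate early list was not tested. The summed level was lowest among the controls in control 69, the mouse with most Ptgs2, and highest in control 1, with 1.66 CPM of Ptgs2.

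**Figure D5:**
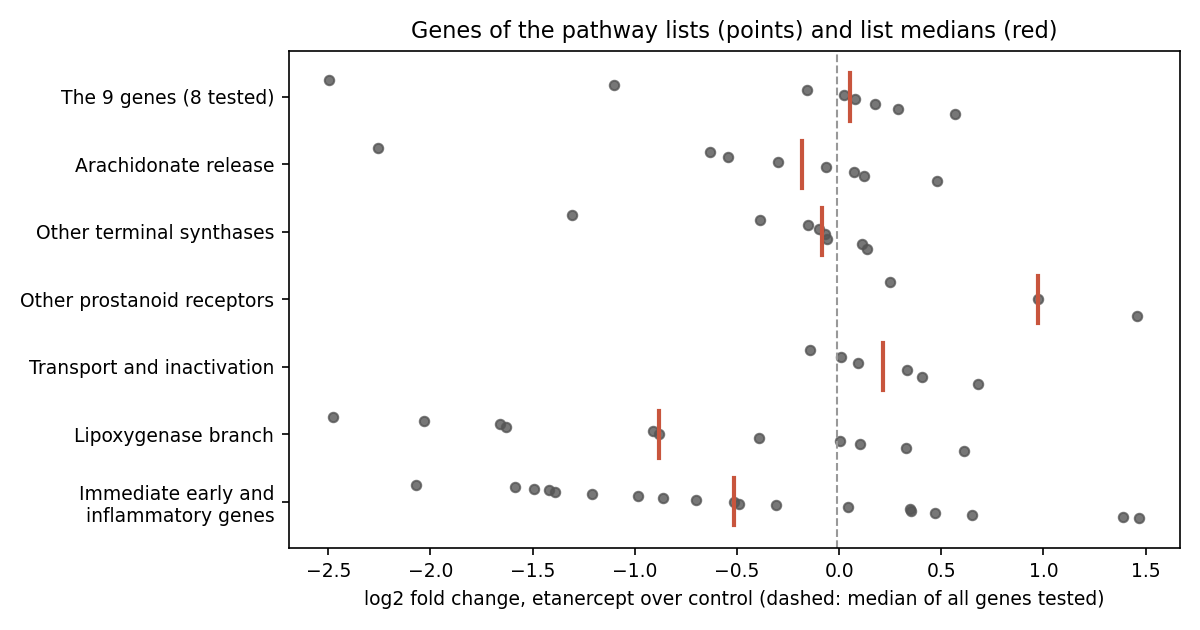
Log2 fold change of etanercept over control (horizontal axis) for every tested gene of the 9 genes and of 6 lists (points), with each list's median in red and the median of all tested genes dashed. The medians run from −0.88 in the lipoxygenase branch to 0.98 over the 3 tested prostanoid receptors, and 0 genes of any list passed an adjusted p of 0.05 in edgeR.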

How the data were processed

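Poly(A)-selected RNA of 8 whole prostates was sequenced as paired reads of 150 nt. Per the labels, the authors used fastp, STAR 2.6.1d and featureCounts 1.5.0-p3 with the mm10 build, and deposited whole-number counts per gene and mouse without normalization. The annotation and strand setting of the counting were not given in the sources used here. The authors' own test was DESeq2 1.26.0.

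From these counts, genes were named and located with GENCODE M21 on GRCm38. It lacks 37 of the identifiers, with 0.00429% of counts. Total counts were 13760669 to 25178942 per mouse. TMM factors (0.917 to 1.10), the quasi-likelihood test of edgeR 4.0.16 (R 4.3.3) and its filterByExpr function (minimum count 10) were used, with Benjamini-Hochberg adjustment over 15472 genes, a call at an adjusted p of at most 0.05 and no covariate. Intervals are at 95%. Single genes were also compared with 2-sided exact permutation tests, with 70 possible assignments, on log2(CPM + 1), whose smallest p is 0.0286. FPKM used the union of exons. The smallest detectable level is that of 3 counts, and floors cover counting error only. The labels do not say more of the samples than that they came from separate animals, named by number.

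The genes named were the 9 members, the 5 genes with the smallest p and those without counts in each pathway list, the 3 genes most like each member, and marker genes of lists whose sums are given. The members and the lists were chosen with earlier results of these data known. Promoter sequences are from RefSeq on GRCm38.p6, matched by symbol for 8 of 9 members, and no entry was found for Ptgis. The fits were tested on simulated data. Alternatives were DESeq2 1.42.0, other scaling and filters, trends with length or GC content removed, a term for animal numbers below 20 against those above 49, protein-coding genes, a robust fit and each mouse left out.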

Additional observations from a re-analysis of the deposited data

Results flagged for a closer look

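Each gene's CPM was examined for a mouse that stands apart from the other 3 of its group, by the gap to the nearest mouse over the group's range (above Dixon's critical value for 4 mice). Of 18 groups examined, 2 held such a mouse, and chance gives about 1 in 20 groups. In Ptgds, etanercept 17 stood at 21.8 CPM, with the nearest treated mouse at 0.554 CPM (gap ratio 0.9746). In Ptger3, control 69 stood at 8.62 CPM, with the nearest control at 38.8 CPM (gap ratio 0.894). The same 2 libraries hold the most seminal vesicle RNA (97204 CPM summed over 6 markers in etanercept 17 and 4001 in control 69), and the part of that tissue in either value was not tested.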

How the results depend on the processing

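Of 159 alternative fold changes of the tested members, 149 kept their direction and 10 reversed, and 0 passed an adjusted p of 0.05 (smallest 0.364). Over all genes, 21 were called with DESeq2 and 0 in edgeR. With library size alone, which moves the median of all genes to −0.094, Ptgs1 stood at −0.076 and Ptges at −0.0025. Leaving out single mice, the log2 fold change ran from −0.43 to 0.31 for Ptgs1, −0.34 to 0.30 for Ptges, −0.41 to 0.29 for Ptgis and −0.16 to 0.67 for Ptger2. Ptgs2 stayed below 0, from −2.93 to −1.03, with control 69 deciding its size, and it could not be fitted with 10 counts required in every mouse. Ptger4 stayed between −1.35 and −0.83. The cause of these shifts was not tested. In the order of levels, Ptgis and Ptger3 change places with the longest transcript, Ptger2 and Ptgds with log2(FPKM + 1), and 4 in place of 3 pairs passed without control 69. No paired analysis was possible because the groups share no animal number. Depth limits Ptger2, Ptgs2 and Ptgds, which had 48 counts or fewer in most mice.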
